A study of Rattus norvegicus with 72 samples.

Results

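The change from postnatal day 2 (P2) to postnatal day 9 (P9) was described in the cortex of female rat pups whose label for parent of origin is maternal. The comparison used all 12 RNA libraries of cortex with that label, of 72 libraries in the series, chosen by tissue, parental label and age. Replicate numbers only name libraries, in the order of the sample records. The libraries form 4 groups of 3: wild-type (WT) pups at P2, UBE3A deletion pups at P2, WT pups at P9 and UBE3A deletion pups at P9, with the WT pups matched to the deletion pups by litter. The label maternal says that the deletion came from the mother, and WT littermates carry the same label. Strain, extent of the deletion and dissection are not stated in the sources used here. Values from the 12 cortex libraries labelled paternal (the same 4 groups of 3, with the deletion from the father) and from 12 hypothalamus RNA libraries labelled maternal (again 3 WT and 3 deletion at each age) stand beside them where the comparison needs them. Nothing in the labels says which litter or animal a library came from, so a p-value speaks only of the spread among these libraries, which may be technical.

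In the first days after birth the rodent cortex passes from making cells to wiring them. Radial glia and dividing progenitors decline, young neurons stop extending axons and form synapses, astrocytes multiply and mature, and oligodendrocyte precursors begin to differentiate before myelin is laid down. At glutamate synapses the NMDA receptor subunit GluN2A is added to receptors that at birth carry mainly GluN2B, and at GABA synapses the chloride exporter KCC2 gains on the importer NKCC1. UBE3A is an E3 ubiquitin ligase that neurons express mainly from the maternal allele.

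Counts in the deposited table are given per RefSeq accession, a transcript record, and the accessions belong to other species than the rat: 0 of 184444 matched a table of rat RefSeq records. Gene names below are those of mouse accessions that are known, and the files hold no names to check them against. A gene can have several accessions, and reads of a gene can be counted under any of them or none, so a value describes an accession and not the gene's total. Of 399 accessions listed for 24 groups of genes, 397 were in the table, 157 were listed at 0 in all 12 libraries, 82 had too few counts to test and 158 were tested. Common genes such as Mbp, Snap25, Camk2a, Gria1 and Dcx are among those listed at 0, which says nothing of their expression. Levels are in CPM, the count scaled to library size after TMM normalization, and they are compared between libraries and never between genes. "Rose" and "fell" mean an adjusted p under 0.05 for P9 against P2 with genotype as a covariate, in the quasi-likelihood F-test of edgeR, Benjamini-Hochberg adjusted over all 8014 accessions tested.

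Library totals ran from 1669200 to 2498255 counts (median 1948606.5), higher at P9 (1943980 to 2498255) than at P2 (1669200 to 1953233). Log levels of libraries of the same age correlated at 0.958 to 0.981 and those of different ages at 0.918 to 0.943, over the tested accessions. The P9 WT libraries did not group by their label. WT replicates 1 and 2 correlated at 0.979 with each other, replicate 3 at 0.968 and 0.958 with them but at 0.978 to 0.979 with the 3 deletion libraries. The tissue label was checked against markers. Fezf2 and Cux2, transcription factors of cortical layers, were counted in all 12 libraries, 5 of 7 hypothalamus markers (Agrp, Pomc, Oxt, Avp and Hcrt) were listed at 0, and the 7 together summed to 4.38 to 7.62 CPM at P2 and 1.59 to 7.89 CPM at P9. The only one tested, Trh, was not called. The 5 striatum markers summed to 9.68 to 29.0 CPM at P2 and 9.78 to 66.5 CPM at P9, with Drd2 listed at 0 and the only one tested, Ppp1r1b, not called (log2 fold change 1.0, SE 0.476).

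The deleted gene was looked at first. Ube3a has 2 accessions in the table. NM_173010 had 65, 43 and 60 counts in the P2 WT libraries, 39, 50 and 35 in the P2 deletion libraries, 51, 66 and 12 in the P9 WT libraries and 21, 14 and 22 in the P9 deletion libraries. At P2 the genotypes overlapped in CPM (20.3 to 26.9 with the deletion, 21.9 to 35.4 in WT). At P9 the library labelled WT replicate 3, at 6.32 CPM, lay below all 3 deletion libraries (7.89 to 11.2 CPM). Since this accession did not separate the genotypes at P2, it cannot decide whether that label is right, which was not tested. NM_011668 had 8, 9 and 18 counts in P2 WT, 14, 7 and 5 in P2 deletion, 19, 13 and 13 in P9 WT and 8, 13 and 14 in P9 deletion libraries. Neither accession passed the test for age. From P2 to P9 NM_173010 moved by -0.71 on the log2 scale (SE 0.332, edgeR quasi-likelihood, Benjamini-Hochberg adjusted p = 0.0954) and NM_011668 by 0.37 (SE 0.275, edgeR quasi-likelihood, Benjamini-Hochberg adjusted p = 0.274). In the deletion libraries alone NM_173010 fell by 1.25 on the log2 scale (edgeR quasi-likelihood, Benjamini-Hochberg adjusted p = 0.000508), while over both genotypes the call depended on the setting. DESeq2 gave NM_173010 a log2 fold change of -0.76 (adjusted p = 0.0303), and edgeR without P9 WT replicate 2 gave -1.0 (quasi-likelihood, Benjamini-Hochberg adjusted p = 0.00688). The number of accessions called for age moved little with these libraries. It was 3937 of 8434 tested without the library labelled P9 WT replicate 3. Without P9 WT replicates 1 and 2 it was 4232 of 9014, and with all libraries 4082 of 8014.

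**Figure D1:**
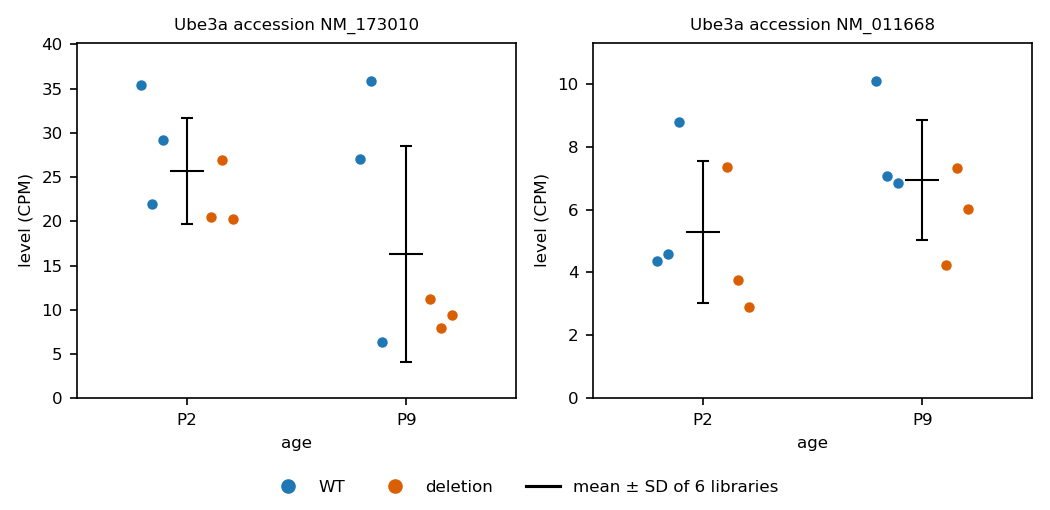
Levels of both Ube3a accessions (y axes, CPM, starting at 0) at P2 and P9 (x axes). Points are the 12 cortex libraries labelled maternal, coloured by labelled genotype, and bars are the mean ± SD of 6 libraries. The library labelled WT with 6.32 CPM of NM_173010 lies just below the deletion libraries at P9.

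After TMM scaling, about as many accessions were called for age in each direction. Of 8014 tested accessions 4082 were called (50.9%), of which 2044 rose (25.5%) and 2038 fell (25.4%). The changes were mostly small: 607 of the risers and 601 of the fallers moved by over 2-fold, and 103 and 40 by over 4-fold. In 1246 accessions all 6 P9 libraries lay above all 6 P2 libraries (15.5%), and in 924 all lay below (11.5%). Noncoding (NR) accessions leaned to P2, with 14.1% of 731 rising and 44% falling, against 26.7% and 23.6% of 7283 mRNA (NM) accessions. The median log2 fold change over all tested accessions was -0.03. TMM scaling centres the changes near 0, so this median and the even split are in part set by it. Among the tested listed accessions, 71 rose, 38 fell and 49 were not called. In bulk tissue, more RNA of a gene per cell and more cells that express it cannot be told apart.

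**Figure D2:**
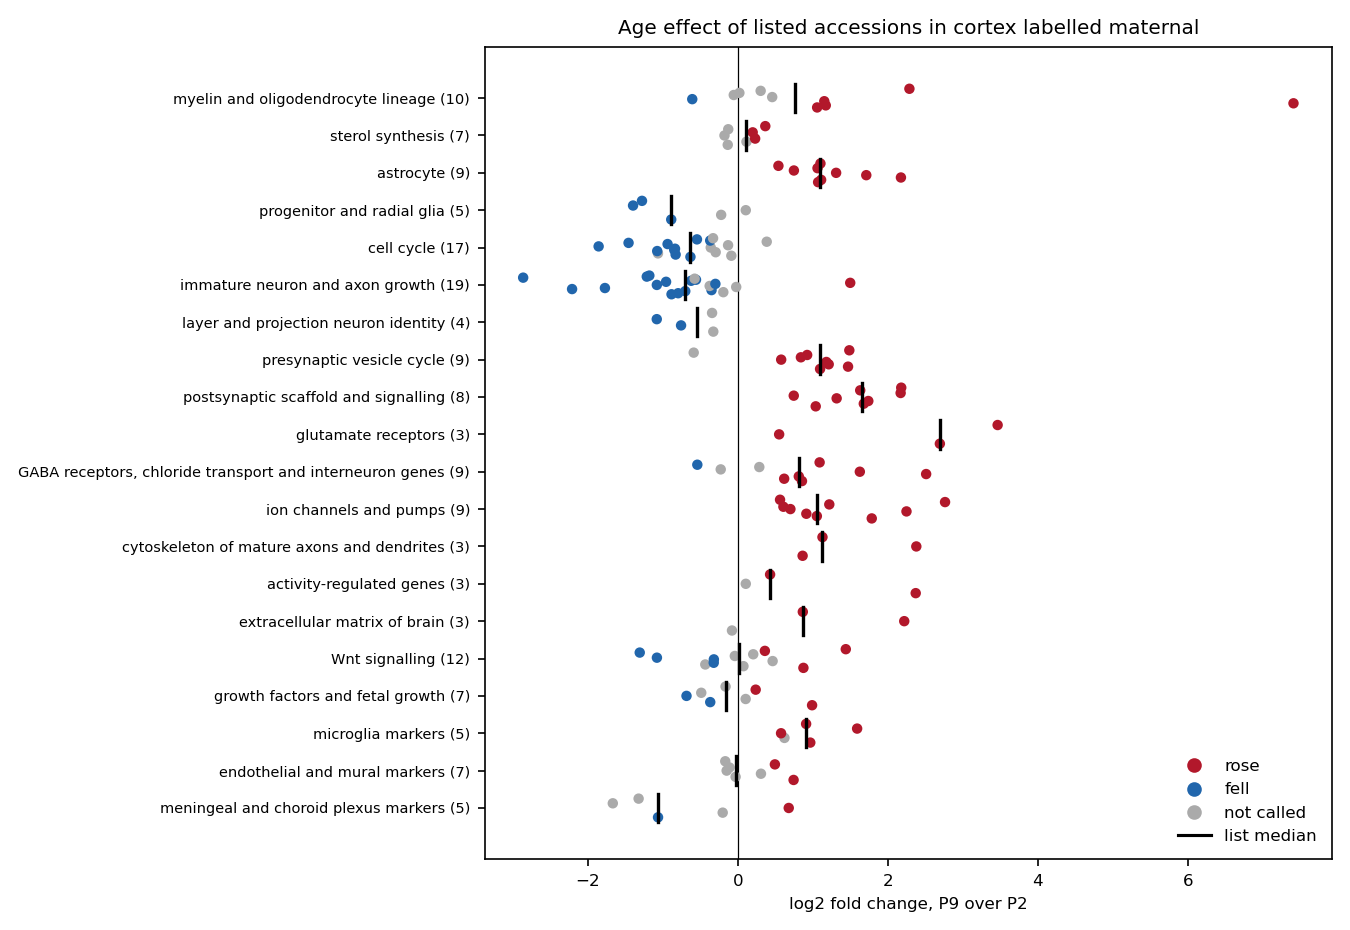
Log2 fold change from P2 to P9 (x axis) for each tested accession of the gene lists with 3 or more tested members (y axis, number tested in brackets), coloured by whether it rose, fell or was not called. Black bars are list medians. All points of the postsynaptic, glutamate receptor, channel and astrocyte lists lie above 0, as do 8 of the 9 presynaptic points, and the medians of the cell cycle, progenitor and young neuron lists lie below.

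In the oligodendrocyte lineage Mobp, Enpp6, Gpr17, Myrf and Cldn11 rose, Mog fell, and Olig1, Olig2, Sox10 and Cspg4 were not called. Of 10 tested accessions 5 rose, 1 fell and 4 were not called, against 25.5% rising and 25.4% falling over all tested accessions. The median log2 fold change was 0.76, against -0.03 over all tested accessions. Mobp, a structural protein of compact myelin, had 0, 0, 4, 3, 2 and 0 counts in the P2 libraries and 380, 362, 152, 318, 366 and 59 in the P9 libraries. Every P9 library was far above every P2 library, and among P9 libraries deletion replicate 3 and WT replicate 3 were the lowest. The fitted log2 fold change of Mobp was 7.41 (SE 0.898, 95% interval 5.38 to 9.43, edgeR quasi-likelihood, Benjamini-Hochberg adjusted p = 8.79e-05), with the P2 level resting on 9 counts in all. Enpp6, an enzyme of newly formed oligodendrocytes, stood at 14.7, 17.6 and 29.2 CPM (lowest, median and highest of 6 libraries) at P2 and 37.8, 113 and 124 CPM at P9. It rose 4.89-fold, without overlap between ages. Gpr17, a receptor of precursors committed to differentiation, rose 2.08-fold from 1030, 1200 and 1700 CPM to 1910, 2810 and 3180 CPM, also without overlap. Myrf, the transcription factor that switches on myelin genes, rose 2.26-fold, and Cldn11, the tight junction protein of myelin, rose 2.23-fold. Both overlapped between ages. Among the accessions not called, the lineage transcription factors Olig1, Olig2 and Sox10 had log2 fold changes of 0.02, -0.05 and 0.46, and Cspg4 (NG2), a proteoglycan of precursors, of 0.31. Without P2 WT replicate 3 Sox10 was called (0.77, edgeR quasi-likelihood, Benjamini-Hochberg adjusted p = 0.0477). Mog, a surface protein of mature myelin, went the other way and fell 1.52-fold, from 93.8, 110 and 123 CPM to 60.3, 74.0 and 87.2 CPM, without overlap between ages. Mog's accession thus had counts in every P2 library, when that of Mobp was near 0. Whether it counts reads of another transcript at that locus was not tested, so the value is that of the accession only.

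Sterol synthesis supplies the cholesterol of myelin and of new membranes. Of 7 tested accessions 3 rose and 4 were not called, against 25.5% rising and 50.9% called over all tested accessions. So small a count is no result about the pathway, and the rises were small. Sc5d, which acts late in the pathway, rose 1.29-fold without overlap between ages. Cyp51 rose 1.17-fold with overlap between ages. In WT libraries alone Cyp51 was not called (0.16, edgeR quasi-likelihood, Benjamini-Hochberg adjusted p = 0.216). Sqle, the monooxygenase early in the pathway, had a log2 fold change of 0.12 (SE 0.0663) and was not called. Hmgcs1 was listed at 0.

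Every tested astrocyte accession rose (9 of 9, with a median log2 fold change of 1.10), and in 7 the ages did not overlap. Over all tested accessions 25.5% rose, and in 15.5% all P9 libraries lay above all P2 libraries. S100b, a calcium-binding protein of maturing astrocytes, stood at 184, 224 and 296 CPM at P2 and 903, 1050 and 1220 CPM at P9. The P9 libraries of both genotypes were all above the P2 libraries, and S100b rose 4.52-fold (log2 fold change 2.18, SE 0.0934, edgeR quasi-likelihood, Benjamini-Hochberg adjusted p = 2.39e-12). Gfap, the intermediate filament of astrocytes, rose 3.28-fold, from 152, 223 and 279 CPM to 436, 694 and 1040 CPM. Its spread at P9 was wide, but no P9 library reached down to the P2 range. Glul (glutamine synthetase) and Mlc1 (a membrane protein of astrocyte endfeet) rose 2.16-fold and 2.09-fold. The glutamate transporter Slc1a3, which radial glia also express, rose less, 1.46-fold from 103, 120 and 152 CPM to 162, 185 and 204 CPM.

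Microglial markers rose as well, in 4 of 5 tested accessions of 14 listed, against 25.5% of all tested accessions. Cx3cr1, the fractalkine receptor of microglia, rose 3.01-fold from 51.2, 72.9 and 99.2 CPM to 201, 232 and 252 CPM, and Csf1r, the receptor on which microglia depend for survival, rose 1.96-fold. In neither did the ages overlap. C1qa was not called (log2 fold change 0.62, SE 0.311). All listed accessions together summed to 92.0 to 137 CPM at P2 and 267 to 332 CPM at P9, and Aif1, P2ry12, Trem2, Ctss and Ptprc were listed at 0.

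Tested genes of dividing cells and of progenitors fell or were not called. In the progenitor list 3 of 5 tested accessions fell and 2 were not called. In the cell cycle list 10 of 17 fell, 7 were not called and none rose. The median log2 fold changes of the lists were -0.89 and -0.63. Over all tested accessions 25.4% fell, and in 11.5% all P9 libraries lay below all P2 libraries. Nes, the intermediate filament of radial glia, stood at 60.3, 86.6 and 90.8 CPM at P2 and 26.8, 33.0 and 41.3 CPM at P9 and fell 2.42-fold. Tnc, a matrix protein of the germinal zone, fell 2.63-fold. Hes5, a Notch target, was not called (log2 fold change -0.22, SE 0.165). Among the genes of division itself, Ccna2 (cyclin A) fell 3.62-fold, on levels of only 4.06 to 6.44 CPM at P2 and 0.86 to 3.19 CPM at P9. Aurkb, a mitotic kinase, fell 2.74-fold, Mcm2 and Mcm4, subunits of the replicative helicase, fell 2.10-fold and 1.80-fold, Kif11, a spindle motor, fell 1.91-fold and Foxm1, a transcription factor of the G2 and M phases, fell 1.77-fold. In none of these 5 did the ages overlap. Mki67, the Ki-67 antigen of cycling cells, fell less, 1.55-fold, from 514, 724 and 800 CPM to 385, 436 and 552 CPM, and its ages overlapped. In deletion libraries alone Mki67 was not called (-0.46, edgeR quasi-likelihood, Benjamini-Hochberg adjusted p = 0.073). Ccnd2, a cyclin of the G1 phase, gave -0.13 on the log2 scale (SE 0.0739) and was not called.

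The 250 bases before the starts of the listed cell cycle genes were searched for a pair of short elements known from promoters of such genes. The elements were the E2F core, TTGGCGC or TTCCCGC, and the CHR core, TTTGAA, each on both strands. In the windows of tested genes no match overlapped another. No other form of the E2F site was searched, so a window counted without an E2F core may still hold such a site. Windows come from RefSeq's rat promoter table (assembly GRCr8) by gene symbol, which gave 32 of the 43 listed genes a window. Over all 27457 windows in it, 5.32% hold an E2F core and 16% a CHR core. Of the 32 cell cycle windows 28.1% hold an E2F core and 46.9% a CHR core, whether or not their gene was tested here. Among genes that fell, 5 had a window, of which 2 hold an E2F core (Mki67 and Rrm1) and 3 a CHR core (Mki67, Mcm2 and Anln). Among tested genes that were not called, 3 had a window, of which none holds an E2F core and 2 hold a CHR core (Hmgb2 and Hmmr). A match is a description of letters, and these numbers are too small to compare the genes that fell with the others. Mki67 and Mcm2 are printed 5′ to 3′ on the gene's own strand, with matches in capitals. The first window is chr1:199952594-199952843 on the minus strand, with 2 CHR cores and an E2F core that lies 70 bases before the start. The second is chr4:122918095-122918344 on the minus strand, with 2 CHR cores and no match to the E2F forms searched.
Mki67: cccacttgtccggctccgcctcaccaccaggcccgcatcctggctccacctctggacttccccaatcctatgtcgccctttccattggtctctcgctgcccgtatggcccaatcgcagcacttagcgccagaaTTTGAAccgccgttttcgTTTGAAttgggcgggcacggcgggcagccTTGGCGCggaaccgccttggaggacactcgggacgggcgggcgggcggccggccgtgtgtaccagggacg
Mcm2: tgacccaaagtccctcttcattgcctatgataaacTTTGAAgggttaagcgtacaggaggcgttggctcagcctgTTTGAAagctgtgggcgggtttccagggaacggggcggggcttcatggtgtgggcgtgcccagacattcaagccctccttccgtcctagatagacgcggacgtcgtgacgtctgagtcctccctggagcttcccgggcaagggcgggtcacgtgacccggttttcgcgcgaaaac

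Genes of young neurons and axon growth fell in 14 of 19 tested accessions, 1 rose and 4 were not called. The median log2 fold change was -0.70, and over all tested accessions 25.4% fell. Sox11, a transcription factor that drives the early programme of newborn neurons, stood at 2220, 2480 and 3000 CPM at P2 and 416, 559 and 660 CPM at P9. No library of one age came near the range of the other, and Sox11 fell 4.62-fold (log2 fold change -2.21, SE 0.0974, edgeR quasi-likelihood, Benjamini-Hochberg adjusted p = 5.14e-11). Its relative Sox4 fell 3.41-fold, from 51.9, 59.1 and 65.5 CPM to 15.2, 17.1 and 19.1 CPM. Igfbpl1, a marker of immature neurons, fell most in the list, 7.26-fold from 387, 526 and 664 CPM to 39.1, 79.3 and 89.5 CPM. Some surface molecules of the list fell. Cntn2 (TAG-1), an adhesion molecule of early axons, fell 2.26-fold, Cd24a, a surface antigen of immature neurons, 2.11-fold, and Epha5, an ephrin receptor of axon guidance, 1.73-fold. None of them overlapped between ages. L1cam, another adhesion molecule of growing axons, was not called (log2 fold change -0.19). The netrin receptor Dcc fell 1.84-fold and Marcks, a membrane and actin binding protein of growth cones, 1.62-fold. Tubb5, Tuba1a and Tubb2b fell too, by 1.47-fold to 2.32-fold, though tubulin genes are alike enough that counting could divide their reads. Ncam1, the adhesion molecule that mature neurons and glia keep, was the accession that rose, 2.83-fold from 37.7, 47.0 and 55.7 CPM to 108, 134 and 155 CPM.

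Few transcription factors of cortical layers could be tested. Of 4, 2 fell and 2 were not called, against 25.4% falling and 50.9% called over all tested accessions. So small a count is no result about the layers. Pou3f3 and Pou3f2, POU factors of upper-layer neurons and their progenitors, fell 2.11-fold and 1.69-fold, the second with overlap between ages. Fezf2, a factor of deep-layer neurons that project below the cortex, had a log2 fold change of -0.34 (SE 0.245) and was not called, nor was Cux2 of the upper layers (-0.33, SE 0.191).

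Nearly all tested synaptic accessions rose. On the presynaptic side 8 of 9 tested accessions rose and 1 was not called (median log2 fold change 1.10). In all 8 the P9 libraries lay above the P2 libraries. Of all tested accessions 25.5% rose, and 15.5% had all P9 libraries above all P2 libraries. Syp (synaptophysin), an abundant membrane protein of the vesicle, rose 2.77-fold from 206, 214 and 274 CPM to 560, 641 and 670 CPM. Cplx2, a complexin that controls fusion of vesicles, stood at 1880, 2030 and 2370 CPM at P2 and 4370, 4640 and 4950 CPM at P9 and rose 2.27-fold (log2 fold change 1.18, SE 0.057, edgeR quasi-likelihood, Benjamini-Hochberg adjusted p = 2.94e-13). Cplx1, its relative, rose 2.14-fold, and the vesicle protein Sv2b rose 2.80-fold. Slc17a6 (VGLUT2), the vesicular glutamate transporter that the cortex carries mainly early and in thalamic input, had a log2 fold change of -0.59 (SE 0.308) and was not called. It was called without P2 WT replicate 3 (-0.75, edgeR quasi-likelihood, Benjamini-Hochberg adjusted p = 0.0268).

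On the postsynaptic side 8 of 8 tested accessions rose, all without overlap, with a median log2 fold change of 1.66. The shares over all tested accessions were 25.5% rising and 15.5% with all P9 libraries above all P2 libraries. Nrgn (neurogranin), which binds calmodulin in spines of cortical neurons, stood at 20.7, 26.7 and 33.1 CPM at P2 and 104, 122 and 140 CPM at P9, a rise of 4.51-fold. Itpka, a spine kinase that binds actin, rose by nearly the same factor, 4.53-fold, on low levels of 0.974 to 4.06 CPM at P2 and 11.2 to 16.3 CPM at P9. Prkcb, a protein kinase C isoform, rose 3.21-fold, Camk2n1, an inhibitor of CaMKII, 3.10-fold and Camk4, a calcium-dependent kinase of the nucleus, 2.49-fold. The scaffold Shank1 rose 2.06-fold, from 109, 118 and 132 CPM to 223, 244 and 271 CPM.

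The NMDA receptor subunits that could be tested all rose, by very different amounts. Grin2a, which encodes GluN2A, had 125, 150, 150, 168, 153 and 125 CPM in the P2 libraries and 889, 1190, 942, 906, 981 and 754 CPM in the P9 libraries, WT before deletion. It rose 6.48-fold (log2 fold change 2.69, SE 0.102, 95% interval 2.48 to 2.91). Grin2b, which encodes GluN2B, rose only 1.47-fold (log2 fold change 0.55, SE 0.062, 95% interval 0.42 to 0.68), from 235, 267 and 294 CPM to 374, 382 and 405 CPM. Both were therefore higher at P9 in every library, and their intervals lie far apart. Grin2c, the subunit GluN2C known from cerebellar granule cells and, in forebrain, from astrocytes, rose 11-fold, from 3.27, 5.03 and 7.79 CPM to 51.6, 55.1 and 69.6 CPM. The accessions of Grin1, of all 4 AMPA receptor subunits and of Grm5 were listed at 0.

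**Figure D3:**
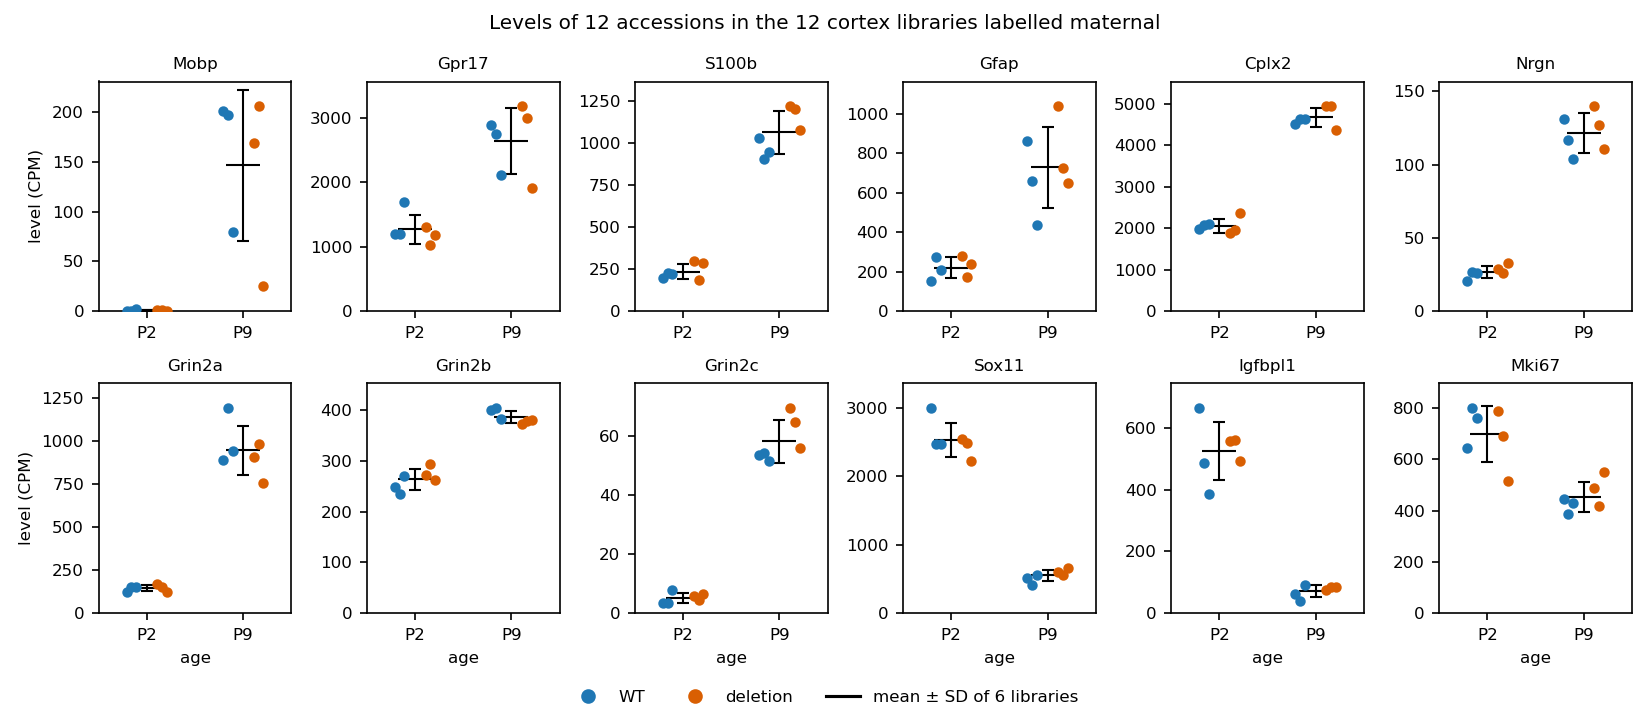
Levels (y axes, CPM, starting at 0) of 12 accessions at P2 and P9 (x axes) in the 12 cortex libraries labelled maternal, coloured by labelled genotype, with the mean ± SD of 6 libraries. In each panel both genotypes moved in the same direction, and the ages overlap only for Mki67.

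Genes of inhibitory signalling mostly rose. Of 9 tested accessions of GABA receptors, chloride transport and interneurons 6 rose, 1 fell and 2 were not called. The shares over all tested accessions were 25.5% rising and 25.4% falling. Gad2, a GABA-synthesizing enzyme, rose 3.09-fold from 231, 277 and 441 CPM to 832, 906 and 1070 CPM, and Gabrd, the delta subunit of receptors outside synapses, 5.70-fold on levels of at most 3.67 CPM at P2 and 5.16 to 14.3 CPM at P9. Neither overlapped between ages. Slc12a5 (KCC2), the chloride exporter, rose 2.13-fold, from 1.09, 4.27 and 5.37 CPM to 7.37, 8.24 and 10.9 CPM. It rested on few counts (2, 7, 10, 7, 10 and 9 in the P2 libraries). In deletion libraries alone Slc12a5 was not called (0.83, edgeR quasi-likelihood, Benjamini-Hochberg adjusted p = 0.05001). Slc12a2 (NKCC1), the importer, had a log2 fold change of -0.23 (SE 0.167) and was not called. Without P9 WT replicate 2 Slc12a2 was called, with -0.39 on the log2 scale (edgeR quasi-likelihood, Benjamini-Hochberg adjusted p = 0.0288). Dlx1, a transcription factor of interneuron precursors, fell 1.45-fold, with overlap between ages. Dlx1 was not called in WT libraries alone (-0.71), in deletion libraries alone (-0.39) or without P9 WT replicates 1 and 2 (-0.36), with edgeR quasi-likelihood, Benjamini-Hochberg adjusted p of 0.0713, 0.0627 and 0.0647.

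All 9 tested channels and pumps rose (median log2 fold change 1.05), against 25.5% of all tested accessions. The potassium channels Kcna2, of axons, and Kcnj4, an inward rectifier of dendrites, rose 3.45-fold and 4.76-fold, Kcna2 from 365, 499 and 564 CPM to 1610, 1720 and 1760 CPM. Kcnc1, a channel of fast-spiking cells, rose 1.89-fold. The ages did not overlap in any of these 3. In the cytoskeleton of mature neurites 3 of 3 rose. Thy1, a surface antigen of mature projection neurons placed in this list, rose 5.21-fold from 352, 401 and 529 CPM to 1900, 2180 and 2380 CPM, Map1a, the mature microtubule-associated protein, 2.19-fold and Nefm, the middle neurofilament, 1.82-fold. Map1b, its early counterpart in the young neuron list, fell.

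Activity-regulated genes and matrix genes gave few tested accessions. Egr1, an immediate early transcription factor, rose 5.18-fold on low levels (at most 2.55 CPM at P2 and 4.30 to 9.04 CPM at P9). Nptx2, a secreted pentraxin that clusters AMPA receptors, rose 1.35-fold with overlap, and the call was lost without P2 WT replicate 3 or the library labelled P9 WT replicate 3 (edgeR quasi-likelihood, Benjamini-Hochberg adjusted p = 0.0718 and 0.0661). Jun was the third tested and was not called. In the matrix list Hapln1, a link protein of perineuronal nets, rose 4.66-fold and Tnr (tenascin-R) 1.83-fold, both without overlap, while Ncan (neurocan), the juvenile proteoglycan, had a log2 fold change of -0.08 (SE 0.0563) and was not called.

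Of 12 tested accessions of Wnt signalling, which the study's title names, 3 rose, 4 fell and 5 were not called, and the median log2 fold change was 0.02. These shares are near those over all tested accessions (25.5% rose and 25.4% fell), so the counts are no result about the pathway. Among ligands, Wnt7a, made by cortical progenitors and neurons, fell 1.25-fold with overlap, and Wnt4 was not called. Among receptors, Fzd1 fell 2.47-fold (with overlap), Fzd10 rose 2.72-fold from 9.26, 9.71 and 14 CPM to 20.1, 28.5 and 42.1 CPM, Fzd3, known for axon tracts, rose 1.29-fold, and the co-receptor Lrp6 fell 1.25-fold from 155, 171 and 187 CPM to 127, 133 and 146 CPM. Sfrp1, a secreted Wnt inhibitor of progenitors, fell 2.11-fold from 289, 354 and 377 CPM to 130, 160 and 215 CPM. Inside the cell, Apc, part of the complex that marks beta-catenin for destruction, rose 1.84-fold, and the pathway target Axin2 gave -0.04 (SE 0.191) and was not called. Ctnnb1, Lef1 and Gsk3b were listed at 0. Of growth factor and fetal growth genes 2 of 7 rose, 2 fell and 3 were not called, shares again near those over all accessions. Igf1r, the receptor of insulin-like growth factors, fell 1.6-fold from 254, 273 and 314 CPM to 165, 172 and 187 CPM. Peg3, an imprinted zinc finger gene, rose 1.99-fold. Igfbp5, a binding protein of insulin-like growth factors, rose 1.18-fold with overlap between ages. In WT libraries alone Igfbp5 was not called (0.18, edgeR quasi-likelihood, Benjamini-Hochberg adjusted p = 0.133).

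The genes that moved most were taken from all called accessions with a mean of at least 10 CPM. Of the 20 largest rises 7 could be named (Mobp, Lynx1, Grin2c, Chil1, Pgr, Grin2a and Wfs1), and the 20 largest falls include Gpc2, Nts, Igfbpl1, Sox11, Nfe2l3 and Mex3a. Lynx1, a brake on nicotinic receptors known from the end of cortical plasticity, rose 13.6-fold from 99.7, 116 and 184 CPM to 1320, 1880 and 1970 CPM. Chil1, a secreted glycoprotein of astrocytes, rose 9.03-fold, Pgr, the progesterone receptor, 6.53-fold and Wfs1, a membrane protein of the endoplasmic reticulum, 6.2-fold. All 20 rises were without overlap, against 15.5% of all tested accessions. They were picked by size of change in these same libraries, so the lack of overlap adds no support. Gpc2, a glypican of growing axons, fell 16.4-fold from 78.0, 91.2 and 117 CPM to 2.12, 5.63 and 8.95 CPM. Mex3a, an RNA-binding protein of progenitors, fell 4.25-fold, and Nfe2l3 fell 4.58-fold. Nts (neurotensin), a neuropeptide, fell 9.13-fold and was the 1 of the 20 falls whose ages overlapped. P2 WT replicate 1 was low for Nts at 19.6 CPM, and P9 WT replicates 1 and 2 (24.4 and 14.7 CPM) stood above the other P9 libraries (2.63 to 3.72 CPM). In WT libraries alone Nts was not called (-2.60, edgeR quasi-likelihood, Benjamini-Hochberg adjusted p = 0.128). The accession with the largest fall, NM_027915, is left unnamed. It had 137, 109, 163, 109, 120 and 230 counts at P2 and 0, 0, 1, 1, 1 and 2 at P9.

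Few markers of vessels, choroid plexus and meninges could be tested. Of 7 tested endothelial and mural accessions 2 rose and 5 were not called, against 25.5% rising and 50.9% called over all tested accessions. Rgs5, of pericytes, rose 1.68-fold from 487, 616 and 871 CPM to 947, 1060 and 1410 CPM. In deletion libraries alone Rgs5 was not called (0.82, edgeR quasi-likelihood, Benjamini-Hochberg adjusted p = 0.05015). Cldn5, the endothelial tight junction protein, gave -0.17 (SE 0.116) and was not called. The 13 listed accessions summed to 894 to 1490 CPM at P2 and 1390 to 1980 CPM at P9. Of 5 tested choroid plexus and meningeal accessions 1 rose, 1 fell and 3 were not called, against 25.5% rising and 25.4% falling over all. Counts this small are no result about these tissues. Some differed widely between libraries of the same age. Ttr (transthyretin), which choroid plexus makes, ran from 0.525 to 78.3 CPM at P2 and from 0 to 33.7 CPM at P9, and Kl (klotho) from 5.77 to 141 CPM and from 3.19 to 57.4 CPM. P2 deletion replicates 2 and 3 were the highest for both, and at P9 the library labelled WT replicate 3. Neither was called. Aqp1, a water channel of choroid plexus, fell 2.09-fold (edgeR quasi-likelihood, Benjamini-Hochberg adjusted p = 0.0497), and Ptgds, a meningeal enzyme, rose 1.6-fold (adjusted p = 0.0296 by the same edgeR test). Leaving out libraries ended both calls: Aqp1 was lost in 9 of the 12 fits that left out a library and Ptgds in 5. The 10 listed markers of these tissues, of which Col1a2 and Folr1 were listed at 0, summed to 204 to 540 CPM at P2 and 206 to 444 CPM at P9, and their part in the other changes was not tested. All 4 listed erythroid accessions (Hba-a1, Hba-a2, Hbb-bt and Alas2) were listed at 0.

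The age effects of WT and deletion pups mostly had the same direction. In WT libraries alone 2421 of 7454 tested accessions were called (32.5%), and in deletion libraries alone 2909 of 7201 (40.4%). Of the 2344 accessions called in WT and tested in both, 2315 had the same direction with the deletion (98.8%), and all 1883 called in both did. The age effects of the genotypes correlated across 7027 accessions at 0.85 (Pearson) and 0.84 (Spearman), a description across accessions, which are no replicates. All 101 listed accessions that were called and had a value in each genotype had the same direction in both. They were called over both genotypes together, which favours equal directions, so this count adds no support. Grin2a had a log2 fold change of 2.83 in WT and 2.55 in deletion pups, Sox11 of -2.42 and -2.01, and S100b of 2.16 and 2.18. The test of the difference itself, the age effect with the deletion minus that in WT, called 0 of 8014 accessions by edgeR's quasi-likelihood F-test (0%, with 388 at unadjusted p under 0.05 and a lowest Benjamini-Hochberg adjusted p of 0.942), and DESeq2 also called 0. For Sox11 this difference was 0.42 (95% interval 0.11 to 0.73), for Grin2a -0.27 (-0.66 to 0.13), for Cplx2 0.04 (-0.20 to 0.28) and for S100b 0.03 (-0.37 to 0.44). These intervals are per gene and unadjusted, and a miss of the threshold does not show that the genotypes age alike. Without the library labelled P9 WT replicate 3, which stood with the deletion libraries, the same test called 62 of 8434 accessions (0.735%), of which 61 (0.723%) had a lower and 1 (0.0119%) a higher age effect in deletion pups, with 909 at unadjusted p under 0.05. None of the listed accessions was among them. At P9 the WT side of that fit rests on replicates 1 and 2 alone. These had 19813 and 19937 accessions with a count, the other P9 libraries 17398 to 18735 and the P2 libraries 19309 to 21811. What part this had in the 62 calls was not tested.

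**Figure D4:**
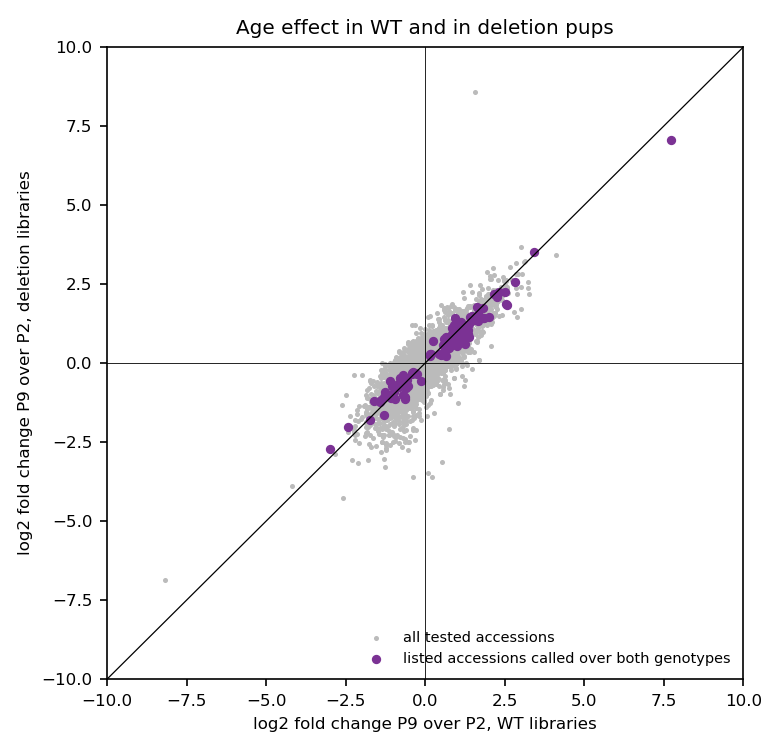
Log2 fold change from P2 to P9 in WT libraries (x axis) against deletion libraries (y axis), both labelled maternal, with the line of equal change. Grey points are tested accessions and purple points are listed accessions called over both genotypes. All 101 of these have the same sign on both axes, which their choice by a call over both genotypes favours.

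The cortex labelled paternal mostly moved in the opposite direction from P2 to P9. In a fit of all 24 cortex libraries, 3910 of 8380 accessions were called for age with the label paternal (46.7%), and of 3993 accessions called with the label maternal in the 12-library fit and tested in both only 163 had the same direction (4.08%). Among called listed accessions 102 of 106 had the opposite sign. The paternal log2 fold change was -2.58 (SE 0.17) for Grin2a, -2.24 (SE 0.22) for S100b, -1.41 (SE 0.0801) for Cplx2, 2.26 (SE 0.0819) for Sox11 and 2.72 (SE 0.22) for Igfbpl1, where the maternal values of the 12-library fit were 2.69, 2.18, 1.18, -2.21 and -2.86. The exceptions with the same sign in both were Anln, Gabra2, Plagl1 and Aqp1, none of which differed by label at the threshold. The test of the difference, maternal minus paternal age effect, called 5210 of 8380 accessions (62.2%) by edgeR's quasi-likelihood F-test, Benjamini-Hochberg adjusted. Across 7725 accessions the age effects correlated at -0.844 (Pearson). In cortex, parental label and the series of library names coincide, so they cannot be told apart. The age labels of the paternal libraries were taken as given. Whether P2 and P9 are exchanged among them was not tested, and the sign of each paternal value, and with it the difference, holds only as far as those labels do.

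The hypothalamus labelled maternal mostly moved in the same direction as the cortex with that label. There 945 of 3696 accessions were called for age (25.6%). Of 2268 accessions called in cortex and tested in both, 1891 had the same direction (83.4%), as did 748 of the 765 called in both tissues. The effects correlated across 3681 accessions at 0.755 (Pearson). Of the called listed accessions 72 of 76 had the same sign, and the exceptions, Cyp51, Apc and Peg3 among them, were not called in hypothalamus. There Grin2c had a log2 fold change of 3.33 (SE 0.46), Gfap of 2.0 (SE 0.205), Grin2a of 1.51 (SE 0.147) and Sox11 of -1.78 (SE 0.223), against 3.46, 1.71, 2.69 and -2.21 in cortex. Grin2b stood at 0.08 (SE 0.154) in hypothalamus and was not called there. The difference between tissues was not tested.

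**Figure D5:**
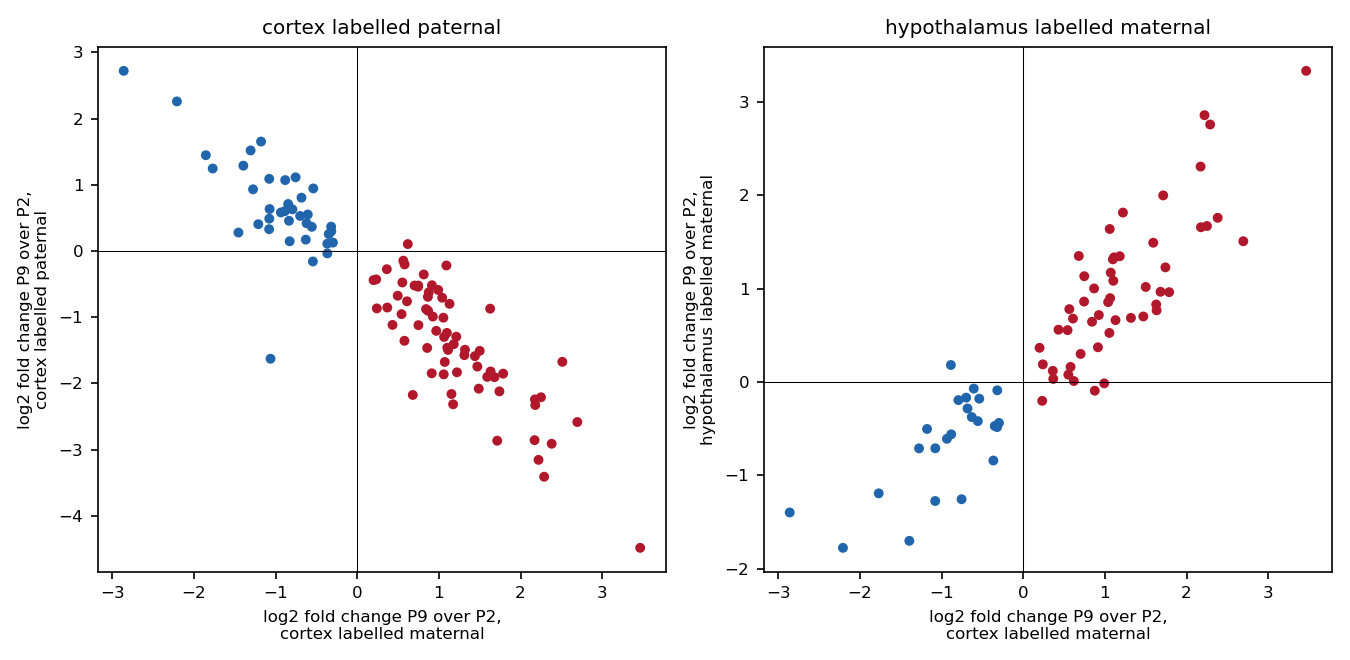
Log2 fold change from P2 to P9 in cortex labelled maternal (x axes) against cortex labelled paternal (left, y axis) and hypothalamus labelled maternal (right, y axis), for listed accessions that rose (red) or fell (blue), without Mobp. Of 106 accessions with a paternal value 102 had the opposite sign, and of 76 with a hypothalamus value 72 had the same sign, Mobp included in both counts.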

How the data were processed

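RNA was sequenced from cortex after rRNA depletion with a directional kit (labels' protocols). The submitters' processing notes name STAR, rn6 and Rnor_6.0. The counting tool, annotation and strand setting are not stated in the sources used here, so reads of overlapping genes may be shared. The authors deposited raw whole-number counts for 184444 accessions (168377 NM, 16067 NR), of which 149974 were 0 in all 12 libraries. At 1669200 to 2498255 counts a library, low accessions rest on few counts.

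Libraries were grouped by their labels. In R 4.3.3, edgeR 4.0.16 was run with TMM scaling, filterByExpr (8014 accessions kept, 98% to 98.92% of counts), genotype and age as terms and robust quasi-likelihood dispersion (9 residual degrees of freedom, common coefficient of variation 12.2%). Tests were two-sided, Benjamini-Hochberg adjusted, with a threshold of 0.05. SEs and 95% intervals come from the same fit. Other contrasts were fitted alike, and the steps were tested on simulated data. No replicates were identical (chi-square per degree of freedom at least 2.37).

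The members and gene lists were chosen with earlier results of these data known. Named were list members with the largest and smallest adjusted p or a defining role, and, of the 20 largest rises and falls with a mean of at least 10 CPM, those whose accession is known. The names within each list, the further gene names and the genes given for the label difference were picked after values were seen. DESeq2 1.42.0, other scaling and filters, thinning, left-out libraries, each genotype alone and collapsed near-duplicate accessions were tried as alternatives. Methylation files and hypothalamus labelled paternal were not used here. Some listed genes enter the counts but are not reported here by name.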

Additional observations from a re-analysis of the deposited data

Results flagged for a closer look

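In 13 of 200 age groups of 6 libraries, counted over the named accessions, a library stood apart from the other 5 by Dixon's criterion on the log2 scale (critical value 0.625). Chance alone gives about 1 in 20 groups. At P2, WT replicate 1 was low for Glul (245 CPM, others 306 to 345), Kcna2 (365 CPM, others 491 to 564) and Slc12a5 (1.09 CPM, others 3.57 to 5.37). WT replicate 3 was high for Enpp6 (29.2 CPM, others 14.7 to 18.9) and Prkcb (1910 CPM, others 1330 to 1500). Deletion replicate 3 was low for Tnc (27.3 CPM, others 47.7 to 61.0) and Sfrp1 (289 CPM, others 344 to 377), and deletion replicate 2 for Nefm (4.83 CPM, others 9.25 to 12.6). At P9, WT replicate 2 was low for the progenitor and cell cycle genes Hes5 (12 CPM, others 15.3 to 17.6), Ccnd2 (265 CPM, others 322 to 358) and Foxm1 (10.3 CPM, others 15.9 to 19.7) and high for Pgr (284 CPM, others 205 to 228). Deletion replicate 3 was low for Lynx1 (1320 CPM, others 1810 to 1970). Hes5 and Ccnd2 were not called for age, and no age call of the other 11 accessions was lost without the library concerned.

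The age effect differed between cortex labelled maternal and labelled paternal for 5210 of 8380 accessions, with the age labels of the paternal libraries taken as given and a possible exchange of P2 and P9 among them not tested. Maternal minus paternal, the log2 difference was 5.29 for Grin2a, 4.42 for S100b, 2.60 for Cplx2, -4.46 for Sox11 and -5.58 for Igfbpl1. These 5 genes were chosen after their values were seen.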

How the results depend on the processing

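The 4082 calls for age, of 8014 tested, stayed within 1.5 times that number under most alternatives. There were 3714 under DESeq2, 4068 with RLE scaling, 3816 after thinning to the lowest total and 3975 with no genotype term. No filter gave 4385 of 34470 tested, a far lower share. All 24 cortex libraries gave 4019, the most abundant accession left out 4075 and deletion libraries only 2909. With 1 accession kept of each set with nearly the same counts there were 2824 of 5845, with 1307 higher and 1517 lower. Calls ran from 3875 to 4152 with a library left out. WT libraries alone, with fewer samples, gave 2421, outside 1.5 times. Without P9 WT replicates 1 and 2, chosen after seeing the data, there were 4232 of 9014 tested.

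Calls for a genotype difference in the age effect ran from 0 to 62 with a library left out, 62 without P9 WT replicate 3 and 1 each without P2 deletion replicate 1 or 3. Calls for the label difference ran from 4965 to 5075 with a library labelled maternal left out (none labelled paternal was), against 5210 of 8380. They were 5027 by DESeq2 and 6034 of 38269 tested without a filter.

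For 100 named accessions under 22 alternatives, 2140 of 2194 values kept direction and side of the threshold, 37 calls were lost, 11 were gained and 6 values changed sign. The sign changes were all in accessions not called over both genotypes: in WT alone Fezf2 gave 0.0613, Slc12a2 0.0866, Ttr 0.0857 and Kl 0.535, and in deletion pups alone Ncan gave 0.00081 and Cldn5 0.0592. No call for Mobp, Grin2a, Grin2b, S100b, Cplx2, Nrgn, Sox11 or Igfbpl1 was lost under any of these. No paired analysis was possible because the labels give no replicate numbers and tie no library to a litter, and the numbers used here only name libraries. Precision is limited by 3 libraries a group and, for accessions such as Mobp, Egr1, Gabrd and Slc12a5, by few counts at P2.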
